A study of Sus scrofa with 32 samples.

Results

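The loin muscle of a cross between Duroc, Landrace and Dapulian pigs (DLDPL) was compared with that of purebred Landrace pigs (L), using all 8 libraries of each group, which are 16 of the 32 libraries in the series. Membership follows the breed label of each sample, so no measured value entered the choice. Every pig was labelled wild type and 6 months old, and the tissue was the longissimus dorsi, the long muscle of the back. The pigs were kept alike in housing and feed. The other groups, Dapulian (DPL) and Landrace x Dapulian (LDPL) with 8 libraries each, entered the model and are quoted at the end. Landrace is a lean commercial breed, Dapulian an indigenous Chinese breed, and Duroc a commercial breed often used as a sire. Such a cross carries Landrace and Dapulian alleles besides those of Duroc, so a difference from Landrace belongs to no single parent breed. Neither sex, parentage nor time of slaughter is stated. The L libraries carry numbers in a series of their own and the labels name no batch. Any handling particular to these pigs or libraries and the breed therefore cannot be told apart.

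Longissimus dorsi is mostly fast, glycolytic muscle, with slower oxidative fibres between. Immediate early genes are transcription factors and signalling regulators that muscle cells transcribe within minutes of contraction, stretch, hormones or damage, without new protein synthesis. Several of them, and the heat shock proteins that refold damaged proteins, also respond to what happens to an animal or a sample around slaughter. PPARGC1A, a coactivator, raises the expression of mitochondrial genes, and myostatin restrains muscle growth.

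Uniquely mapped reads per library averaged 24972962 ± 2268551 in DLDPL and 26590633 ± 1158018 in L (SD, n = 8 each), and 12821 genes were tested. The leading principal component held 22.6% of the variance, and on it the L libraries lay between -54.5 and -43.3 and the DLDPL libraries between -13.2 and 21.3, with no overlap. The share of reads on genes of the mitochondrial genome was 22.7% ± 4.86 in DLDPL and 20.8% ± 2.58 in L (SD, n = 8 each), a difference within the spread (exact permutation test, two-sided, p = 0.347, Benjamini-Hochberg p = 0.390 over 4 such library measures). These libraries stood apart in genes reported below. DLDPL replicate 18 had low immediate early and heat shock genes, and DLDPL replicate 32 had high interferon genes. DLDPL replicate 29 was high for SCD and FASN, genes of fat synthesis, but not at the median member of the fat synthesis list. L replicate 2 had high leukocyte and immature fibre genes and low muscle genes. Of the 10 skeletal muscle markers tested, 0 rose and 3 fell, or 6 fell without L replicate 2. Their summed level was 93933 to 149458 CPM in DLDPL and 75034 to 194573 CPM in L. In bulk tissue, fewer cells of a type and less RNA per cell cannot be told apart.

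Of the 12821 genes, 2805 (21.9%) differed between DLDPL and L at an adjusted p under 0.05 in edgeR's quasi-likelihood test. Of these, 1488 (11.6% of all tested) were higher in DLDPL and 1317 (10.3%) were lower. The median log2 change over all tested genes was -0.022. Changes of at least 2-fold were called for 695 genes (5.42%), 403 upward (3.14%) and 292 downward (2.28%). For 511 genes (3.99%) the 8 DLDPL values did not overlap the 8 L values. Among these, 313 (2.44%) had every DLDPL library above and 198 (1.54%) every L library above. Levels are given as CPM, counts scaled to library size after its correction by edgeR's TMM factor for that library. This factor was 1.444 in L replicate 2, 0.9329 to 1.105 in the other L libraries and 0.8589 to 1.259 in DLDPL. A higher factor lowers all CPM values of a library. Log2 changes are DLDPL minus L with their standard errors, and "rose" and "fell" stand for a called difference. The plot of change against level shows NR4A3 farthest from 0, with ATF3, MAFF and CSRNP1 among the other large rises, and no fall as large as the rise of NR4A3.

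**Figure D1:**
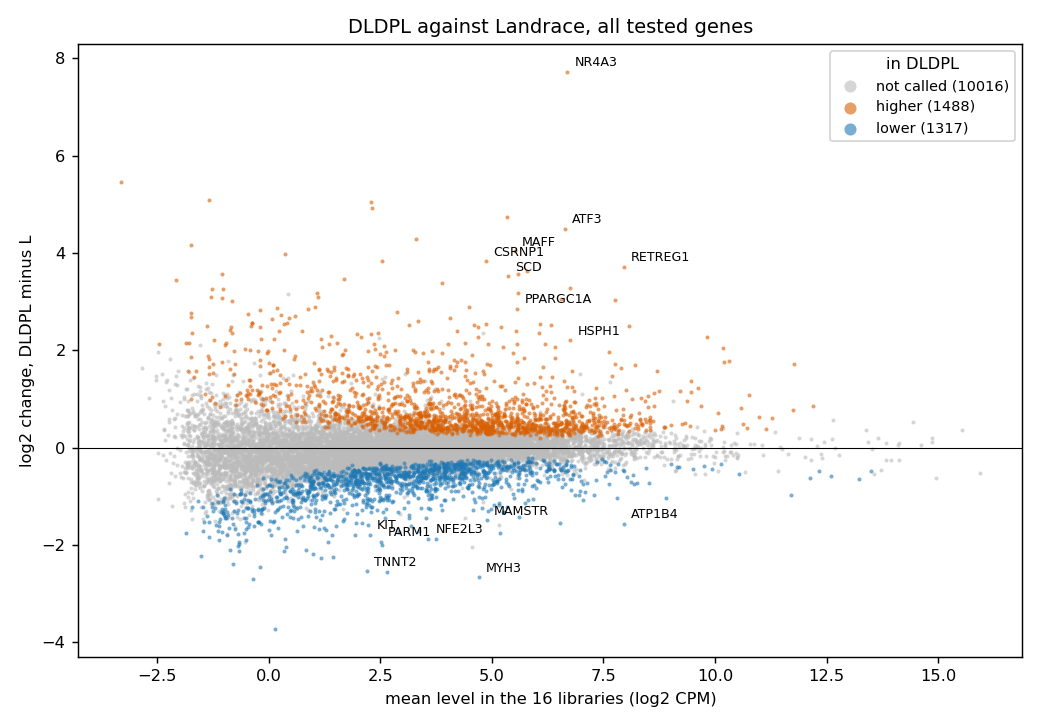
Log2 change of DLDPL minus L for each tested gene with reads in these libraries (vertical axis) against its mean level in the 16 libraries (horizontal axis, log2 CPM); orange points are the 1488 genes called higher in DLDPL, blue points the 1317 called lower, and grey points were not called. NR4A3 stands at 7.72, and the labelled falls lie between -2.67 and -1.49.

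Immediate early genes gave many of the large differences. Of the 34 genes listed, 18 of the 20 tested members rose and 0 fell, with a median log2 change of 2.44, against 11.6% higher and 10.3% lower among all genes. NR4A3, an orphan nuclear receptor induced by exercise and by cAMP, measured 16.5, 241 and 375 CPM in DLDPL (lowest, median and highest of 8) and 0.232, 1.09 and 1.58 CPM in L. The lowest DLDPL library, replicate 18, was still above every L library, and the next DLDPL value was 45.03 CPM (log2 change 7.72 ± 0.63, adjusted p = 1.41e-10).

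MAFF, a small Maf transcription factor, showed the same arrangement at 19.7, 101 and 133 CPM in DLDPL and 3.08, 5.404 and 7.01 CPM in L (log2 change 4.04 ± 0.30, adjusted p = 1.75e-11), that is 16.4-fold higher. CSRNP1, a nuclear protein induced by axin, measured 9.002, 60.03 and 90.9 CPM and 2.605, 3.59 and 5.45 CPM (log2 change 3.83 ± 0.34, adjusted p = 7.12e-10). All 8 DLDPL libraries exceeded all 8 L libraries for both genes, and in both the lowest DLDPL library was again replicate 18. ATF3, a stress-induced transcription factor of the ATF/CREB family, measured 13.02, 174 and 417 CPM in DLDPL and 3.25, 8.32 and 13.4 CPM in L (log2 change 4.50 ± 0.49, adjusted p = 5.34e-08). Its groups met only through replicate 18, since the second lowest DLDPL value was 78.7 CPM.

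FOS, a subunit of the AP-1 transcription factor, spread widely within both groups, with 48.9, 382 and 805 CPM in DLDPL and 2.18, 53.5 and 86.1 CPM in L (log2 change 3.03 ± 0.50, adjusted p = 4.55e-05). Replicate 18 lay inside the L range and the other 7 DLDPL libraries lay above it. KLF4, a zinc finger transcription factor, rose 5.58-fold (11.2, 42.9 and 62.6 CPM against 3.53, 7.75 and 11.8 CPM, log2 change 2.48 ± 0.26, adjusted p = 3.27e-08). MYC, the growth-related transcription factor, rose 5.29-fold (log2 change 2.40 ± 0.36, adjusted p = 1.25e-05), and DUSP1, a phosphatase that switches off MAP kinases, rose 3.31-fold (log2 change 1.73 ± 0.30, adjusted p = 7.44e-05). The other called members were CCN1, CCN2, EGR1, EGR2, EGR3, FOSL1, IER2, JUNB, KLF10 and NR4A2, with log2 changes from 0.77 for KLF10 to 2.55 for CCN1. KLF10 lost its call without L replicates 2, 4, 5, 8 or 10 or DLDPL replicates 6, 18 or 32. FOSL1 changed from 2.51 to 3.68 without L replicate 2 and was not called by limma (log2 change 0.35, adjusted p = 0.0962). The summed level of the 20 tested members was 272 to 3247 CPM in DLDPL and 132 to 457 CPM in L.

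DLDPL replicate 18 was the lowest of its group for each called member except KLF10, for which it was the highest, and FOSL1, for which replicate 32 was lower. The median member in that library stood 0.37 above the L mean on the log2 scale, inside the range of the L libraries (-0.84 to 0.54), while the other 7 DLDPL libraries stood 1.73 to 3.31 above it. Without it the list had 18 rises, not all of them the same genes, and NR4A3 gave log2 change 7.90, adjusted p = 5.14e-12.

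**Figure D2:**
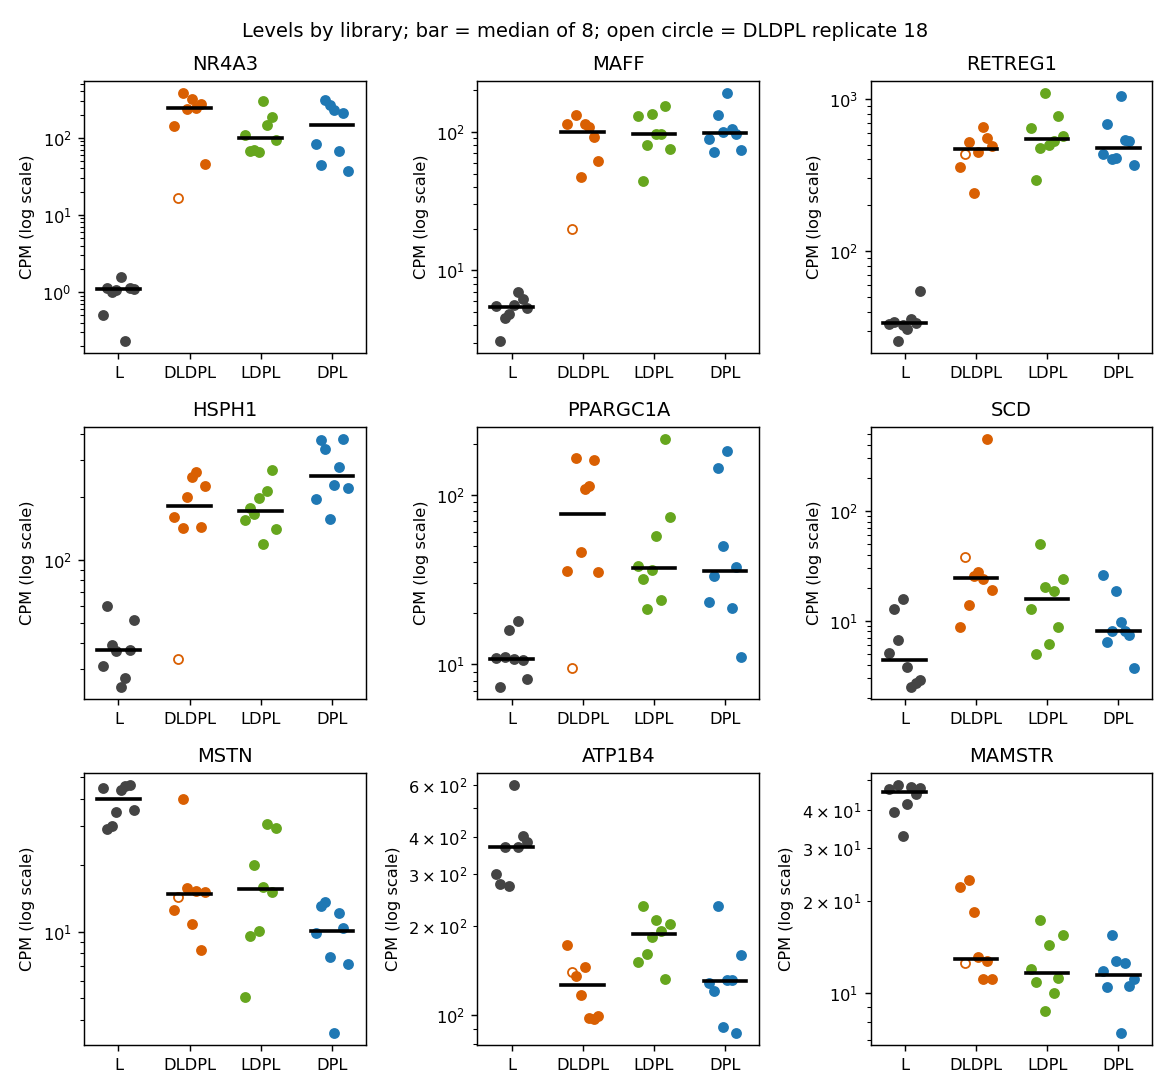
Levels of 9 genes in all 32 libraries (vertical axis, CPM on a log scale), each point 1 library and each bar the median of 8; columns are L, DLDPL, LDPL and DPL, and open circles mark DLDPL replicate 18. For NR4A3, MAFF and RETREG1 every DLDPL library lies above every L library, and for ATP1B4 and MAMSTR every one lies below.

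Heat shock proteins and their partners rose as a group. Of 27 listed genes, 17 of the 21 tested members rose and 0 fell, with a median log2 change of 0.84. HSPH1, a nucleotide exchange factor for HSP70 chaperones, measured 33.6, 181 and 264 CPM in DLDPL and 24.8, 36.99 and 60.4 CPM in L (log2 change 2.21 ± 0.27, adjusted p = 3.43e-07). Replicate 18 again lay among the L values while the other 7 DLDPL libraries reached at least 143 CPM.

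BAG3, a co-chaperone that directs damaged filamin and other muscle proteins to autophagy, measured 417, 580.5 and 956 CPM against 126, 205 and 277 CPM (log2 change 1.58 ± 0.19, adjusted p = 3.84e-07). Its partner HSPB8, a small heat shock protein, measured 700.4, 1146 and 1379 CPM against 299, 461 and 667 CPM (log2 change 1.22 ± 0.18, adjusted p = 7.95e-06). Neither gene's groups overlapped. FLNC, the filamin of muscle Z-discs and a client of that pair, rose 3.31-fold (log2 change 1.73 ± 0.25, adjusted p = 5.92e-06), although its groups did overlap. HSF2, a heat shock transcription factor, rose 2.06-fold with no overlap (log2 change 1.04 ± 0.15, adjusted p = 6.59e-06). The other called members were CHORDC1, DNAJA1, DNAJB1, DNAJB4, DNAJB5, FKBP4, HSP90AA1, HSP90AB1, HSPA4, HSPA8, HSPA9, HSPD1 and STIP1, with log2 changes from 0.44 for HSP90AB1 to 1.77 for DNAJB1. HSP90AB1 lost its call without L replicates 1, 8 or 9 or DLDPL replicates 27 or 28. Limma on log2(RPKM + 1) called neither DNAJB1 (log2 change 1.43, adjusted p = 0.0618) nor HSP90AB1 (log2 change 0.42, adjusted p = 0.111). In replicate 18 the median member stood 0.06 above the L mean, against 0.68 to 1.32 in the other 7 DLDPL libraries.

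The wider stress response was mixed. Among genes of the unfolded protein and amino acid stress responses 5 of the 19 tested members rose and 2 fell, with a median log2 change of -0.010. The count of rises was 3 without DLDPL replicate 27, and that of falls 1 without L replicates 1 or 2 or DLDPL replicates 20, 27, 28 or 29. The largest rise was that of RETREG1, which hands parts of the endoplasmic reticulum to autophagy, at 240.2, 467 and 656 CPM in DLDPL and 25.7, 33.4 and 54.6 CPM in L (log2 change 3.72 ± 0.24, adjusted p = 6.41e-13). No DLDPL library, replicate 18 included, came near the L range. PPP1R15A, which reverses the translational block of the integrated stress response, rose 5.73-fold (log2 change 2.52 ± 0.24, adjusted p = 4.52e-09), and DNAJB9, a chaperone of the endoplasmic reticulum, rose 1.77-fold (log2 change 0.82 ± 0.14, adjusted p = 4.04e-05), both without overlap. PHGDH, the first enzyme of serine synthesis, fell (log2 change -2.24 ± 0.61, adjusted p = 0.00768), yet its medians were 0.883 CPM in DLDPL and 0.961 CPM in L. The difference rests on high L libraries, of which the top pair reached 13.4 and 13.4 CPM, and limma on log2(RPKM + 1) did not call it (log2 change -0.74, adjusted p = 0.0981).

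ZFAND2A, a proteasome-binding protein of proteotoxic stress, measured 23.1, 27.2 and 98.96 CPM against 1.94, 5.57 and 8.01 CPM (log2 change 2.89 ± 0.44, adjusted p = 1.77e-05) with no overlap, and its highest value was that of DLDPL replicate 28. SLC19A2, a thiamine transporter, measured 49.1, 108 and 163 CPM in DLDPL and 6.28, 7.57 and 13.8 CPM in L (log2 change 3.63 ± 0.26, adjusted p = 6.7e-12). Every DLDPL library was thus above every L library for this carrier too. RCAN1, an inhibitor of the phosphatase calcineurin, measured 55.1, 171 and 390.4 CPM against 15.5, 21.2 and 23.2 CPM (log2 change 3.27 ± 0.43, adjusted p = 1.78e-06), with no overlap and with replicate 18 lowest in DLDPL.

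Among genes of the extracellular matrix most structural members did not pass the test, while several of its regulators did. Of 43 matrix and fibroblast genes, 2 of the 34 tested members rose and 1 fell, with a median log2 change of -0.24, or 1 rose without L replicate 10 or DLDPL replicates 28 or 29. THBS1, a matrix glycoprotein that activates TGF-beta, measured 14.2, 168 and 446 CPM in DLDPL and 13.2, 18.5 and 40.02 CPM in L (log2 change 3.05 ± 0.48, adjusted p = 2.37e-05), and its groups overlapped. COL15A1, a basement membrane collagen, fell (log2 change -0.59 ± 0.18, adjusted p = 0.0157), and COL3A1, a fibrillar collagen, was not called (log2 change -0.54 ± 0.28, adjusted p = 0.173). Among matrix proteases and their inhibitors 5 of the 21 tested members rose and 2 fell, with a median log2 change of -0.044, or 4 fell without DLDPL replicate 6.

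ADAMTS1, a protease that cleaves proteoglycans, rose 4.03-fold (log2 change 2.01 ± 0.33, adjusted p = 5.1e-05). ADAMTS4, a related protease, rose from a level near the limit of detection, with 0.137, 6.01 and 34.2 CPM in DLDPL and 0, 0.276 and 0.827 CPM in L, where 3 libraries had 0 reads (log2 change 4.93 ± 0.72, adjusted p = 8.34e-06, or 4.27 without DLDPL replicate 28). SPOCK2, a matrix proteoglycan, fell 2.09-fold (log2 change -1.07 ± 0.22, adjusted p = 0.000598).

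Targets of the glucocorticoid receptor were mostly higher in DLDPL. In this list 9 of the 13 tested members rose and 0 fell, with a median log2 change of 0.88. The median member stood 0.71 above the L mean in replicate 18 and 0.54 to 1.21 above it in the other 7 DLDPL libraries. The summed level was lowest in replicate 18, at 2420.3 CPM against 3141.5 to 5012 CPM in the others. A large part of that sum was PDK4, at 914 CPM in replicate 18 and 1561 to 2749 CPM in the others. FOXO1, a transcription factor of fasting that is also a glucocorticoid target, measured 61.1, 111 and 145 CPM in DLDPL and 22.3, 33.8 and 45.4 CPM in L (log2 change 1.66 ± 0.19, adjusted p = 1.62e-07), with no overlap.

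PDK4, which inhibits pyruvate dehydrogenase and so spares glucose, measured 914, 2006 and 2749 CPM against 256, 444 and 1316 CPM (log2 change 1.78 ± 0.32, adjusted p = 0.000145). Both groups spread widely here, and the highest L library lay above the lowest DLDPL library, replicate 18. TRIM63, the muscle ubiquitin ligase MuRF1, measured 314, 369.6 and 511 CPM against 75.2, 179.9 and 284 CPM (log2 change 1.01 ± 0.19, adjusted p = 0.000188) with no overlap. FBXO32, the other muscle ligase of that pathway, was not called (log2 change 0.43 ± 0.25, adjusted p = 0.228).

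Genes of protein breakdown went both ways. The proteolysis list shares FOXO1 and TRIM63 with the glucocorticoid targets. In it 9 of the 19 tested members rose (47.4%) and 2 fell (10.5%), with a median log2 change of 0.32. Over all tested genes the shares were 11.6% and 10.3%. The falls numbered 1 without L replicate 4 or DLDPL replicate 25. CTSL, a lysosomal protease, rose 3.05-fold (log2 change 1.61 ± 0.40, adjusted p = 0.00375, or 2.21 without L replicate 2), PSMA1, a subunit of the proteasome core, rose 1.83-fold with no overlap (log2 change 0.87 ± 0.16, adjusted p = 0.0002), and CAPN1, the calcium-dependent protease calpain-1, fell 1.25-fold (log2 change -0.32 ± 0.10, adjusted p = 0.0243). CAPN1 lost its call without either of those libraries. Among autophagy genes 5 of the 26 tested members rose (19.2%) and 3 fell (11.5%), with a median log2 change of 0.081. The falls numbered 1 without L replicates 1 or 8 or DLDPL replicate 27. The largest of these rises was that of RETREG1, already counted among the unfolded protein and amino acid stress genes. GABARAPL1, an autophagosome protein and FOXO target, rose 2.401-fold with no overlap (log2 change 1.26 ± 0.18, adjusted p = 7.93e-06), and SQSTM1, the cargo adaptor p62, rose 1.81-fold (log2 change 0.86 ± 0.18, adjusted p = 0.000914).

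Clock genes also differed between the groups. Here 5 of the 14 tested members rose and 1 fell, with a median log2 change of 0.32. The falls numbered 2 without L replicate 9 or DLDPL replicates 6, 18 or 20 and 3 without L replicate 2. NFIL3, a repressor of clock output genes, measured 11.4, 19.7 and 89.9 CPM in DLDPL and 1.203, 2.48 and 4.93 CPM in L (log2 change 3.38 ± 0.50, adjusted p = 9.73e-06), and DBP, the activator at the same DNA elements, fell 2.59-fold (2.94, 4.75 and 8.14 CPM against 5.802, 11.3 and 23.05 CPM, log2 change -1.38 ± 0.28, adjusted p = 0.000646). The groups did not overlap for NFIL3, with DLDPL replicate 28 far above the rest, and did overlap for DBP. PER1, a core repressor and glucocorticoid target, rose 2.09-fold with no overlap (log2 change 1.06 ± 0.17, adjusted p = 3.61e-05), as did CRY2, another core repressor (log2 change 0.96 ± 0.19, adjusted p = 0.000382). RORA, a nuclear receptor that activates clock genes, rose 1.91-fold (log2 change 0.93 ± 0.13, adjusted p = 5.99e-06). The labels name no hour of sampling, so that hour and the breed cannot be told apart for these genes.

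**Figure D3:**
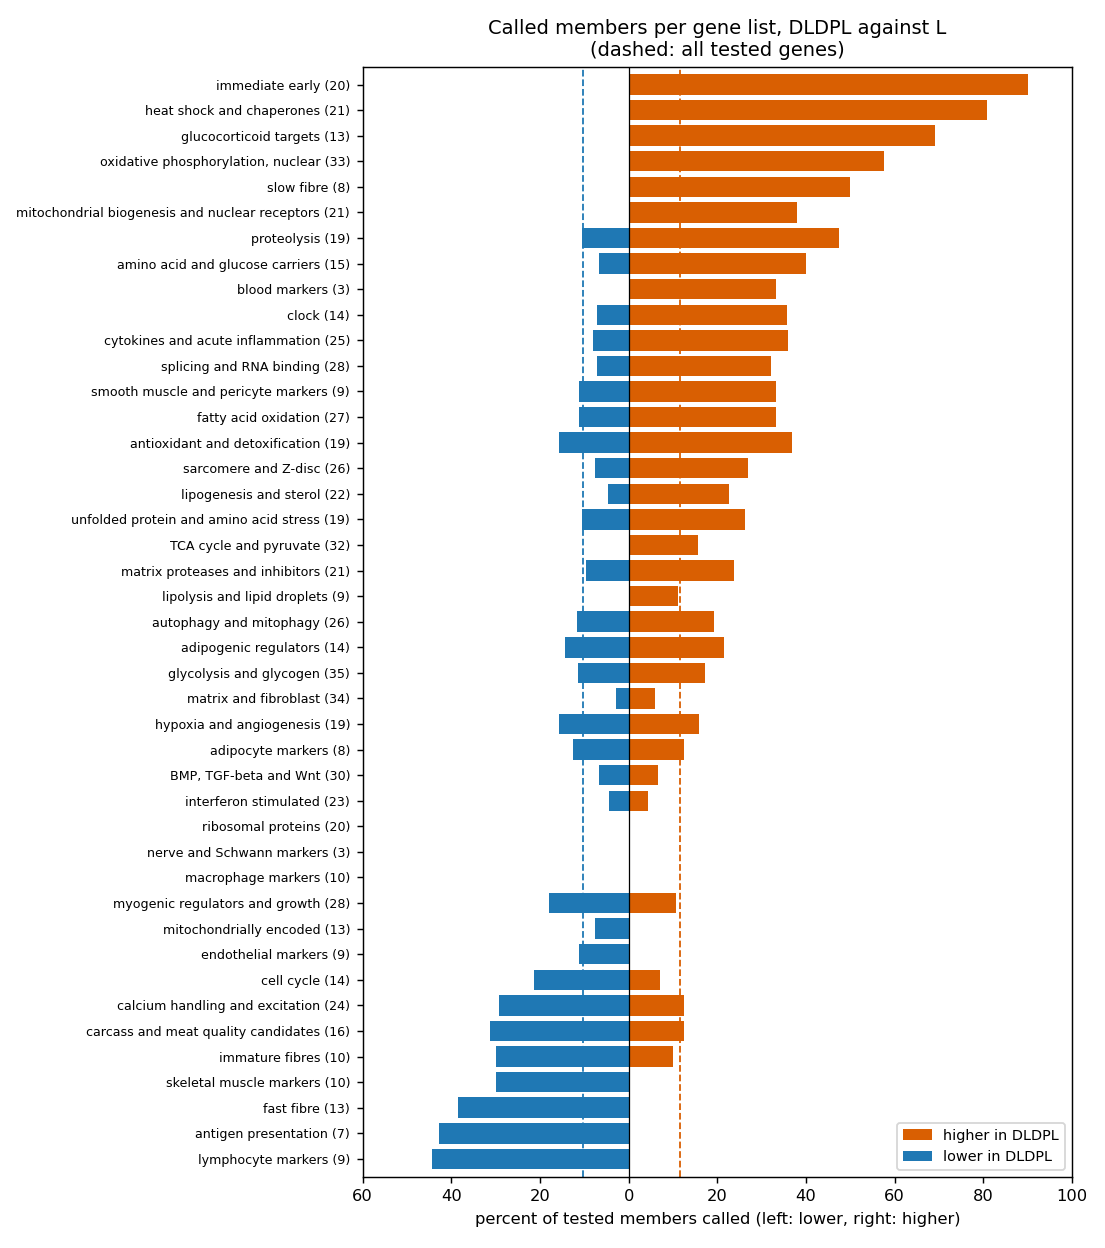
Share of the tested members of each gene list called higher (orange, to the right) or lower (blue, to the left) in DLDPL than in L, in percent, with the number of tested members after each name; dashed lines mark the shares over all tested genes, 11.6% and 10.3%. Immediate early genes reach 90% higher and heat shock genes 81.0%, whereas lymphocyte markers and antigen presentation genes lie on the lower side.

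Nuclear genes of oxidative phosphorylation were slightly higher in DLDPL. Of 70 listed, 19 of the 33 tested members rose and 0 fell, with a median log2 change of 0.41, against -0.022 over all genes. NDUFB9, a subunit of complex I, measured 254, 346 and 441 CPM in DLDPL and 169, 217 and 264 CPM in L (log2 change 0.68 ± 0.14, adjusted p = 0.000601). COX5B, a subunit of complex IV, measured 265, 330.2 and 409.7 CPM against 162, 216 and 304 CPM (log2 change 0.64 ± 0.13, adjusted p = 0.000759). The groups overlapped for both, and the differences were below 2-fold, as they were for all 19 called members. UQCRQ and UQCRFS1, both of complex III, rose 1.61-fold and 1.39-fold.

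The genes encoded in mitochondrial DNA did not follow. Of 13 members, 0 rose and 1 fell in edgeR, with a median log2 change of 0.082. There was 1 rise without L replicate 4 or DLDPL replicates 28 or 29, and there were 2 falls without L replicates 2 or 5 or DLDPL replicate 20. That gene, ATP8, a small subunit of ATP synthase, measured 1222, 2152 and 3171 CPM in DLDPL and 1867, 4596 and 6060.3 CPM in L (log2 change -0.97 ± 0.22, adjusted p = 0.00157). ND4 and ND2, both subunits of complex I, had log2 changes of opposite sign that were not called (ND4 log2 change 0.53 ± 0.20, adjusted p = 0.0537, and ND2 log2 change -0.53 ± 0.22, adjusted p = 0.0814). ND4 was called by DESeq2 (log2 change 0.54, adjusted p = 0.0276) and by limma (log2 change 0.49, adjusted p = 0.0173), and without L replicate 4 or DLDPL replicates 28 or 29. ND2 was called by limma (log2 change -0.58, adjusted p = 0.0148) and without L replicates 2 or 5 or DLDPL replicate 20. COX1, of complex IV, was not called either (log2 change 0.36 ± 0.19, adjusted p = 0.178). Reads of such neighbouring genes come from shared transcripts and overlap between genes was not resolved by strand.

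Several regulators of mitochondrial content rose as well. In that list 8 of the 21 tested members rose and 0 fell, with a median log2 change of 0.17, while the falls numbered 1 without DLDPL replicates 6 or 18 and 2 without L replicate 2. PPARGC1A measured 9.55, 77.2 and 164 CPM in DLDPL and 7.37, 10.8 and 18.00 CPM in L (log2 change 2.85 ± 0.56, adjusted p = 0.000353). Replicate 18 was again the DLDPL library inside the L range, and the next reached 35.1 CPM. PPARA, the nuclear receptor that controls fatty acid oxidation, rose 2.63-fold with no overlap (log2 change 1.40 ± 0.23, adjusted p = 3.42e-05), and its relative PPARD rose 1.62-fold (log2 change 0.70 ± 0.21, adjusted p = 0.0133).

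PRKAG2 and PRKAG1, regulatory subunits of the energy sensor AMPK, rose 3.500-fold (log2 change 1.81 ± 0.33, adjusted p = 0.00018) and 1.46-fold (log2 change 0.55 ± 0.10, adjusted p = 0.000127). PRKAG3, the subunit best known in pigs for its effect on muscle glycogen, was not called (log2 change -0.41 ± 0.20, adjusted p = 0.133). Of fatty acid oxidation genes 9 of the 27 tested members rose and 3 fell, with a median log2 change of 0.23. The largest rise in that list was that of PDK4, already counted among the glucocorticoid targets. HADHB, of the mitochondrial trifunctional protein, rose 1.59-fold with no overlap (log2 change 0.67 ± 0.14, adjusted p = 0.00082), and ETFDH, which passes electrons from fatty acid oxidation to the respiratory chain, rose 1.41-fold (log2 change 0.49 ± 0.11, adjusted p = 0.00107). The count of falling members was 1 without L replicates 7 or 9 or DLDPL replicates 18, 27, 28 or 29. Of citric acid cycle and pyruvate genes 5 of the 32 tested members rose and 0 fell, with a median log2 change of 0.16, but the count of rises was 2 without L replicates 1, 2 or 10 or DLDPL replicates 20, 25, 28 or 32. MPC2, of the mitochondrial pyruvate carrier, rose 1.396-fold with no overlap (log2 change 0.48 ± 0.11, adjusted p = 0.00176).

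In the list of glycolysis and glycogen genes 6 of the 35 tested members rose and 4 fell, with a median log2 change of -0.13. PPP1R3C, a subunit that targets a phosphatase to glycogen and activates glycogen synthase, measured 62.2, 143 and 181 CPM in DLDPL and 12.5, 30.1 and 67.7 CPM in L (log2 change 1.84 ± 0.27, adjusted p = 7.94e-06). UGP2, which makes UDP-glucose, rose 2.17-fold (log2 change 1.12 ± 0.18, adjusted p = 2.37e-05), and GBE1, the branching enzyme, rose 2.63-fold (log2 change 1.39 ± 0.26, adjusted p = 0.000216), both without overlap. HK2, the hexokinase that traps glucose in muscle, measured 21.7, 38.5 and 81.4 CPM against 8.99, 12.9 and 24.02 CPM (log2 change 1.52 ± 0.30, adjusted p = 0.000454).

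LDHA, which turns pyruvate into lactate, was not called (log2 change -0.16 ± 0.17, adjusted p = 0.543), and ENO3, the muscle enolase, fell 1.396-fold (log2 change -0.48 ± 0.16, adjusted p = 0.0259), though not without L replicates 1, 8 or 10 or DLDPL replicate 27. The count of 4 falls in this list did not hold when single libraries were left out, being 0 without L replicate 8 or DLDPL replicate 27 and 1 without L replicates 1, 4, 7 or 10 or DLDPL replicate 29 and 2 without DLDPL replicates 6 or 25. Among amino acid and glucose carriers 6 of the 15 tested members rose and 1 fell, with a median log2 change of 0.49, or 3 rose without DLDPL replicate 27. SLC38A2, a carrier of neutral amino acids, rose 2.68-fold (log2 change 1.42 ± 0.18, adjusted p = 5.83e-07), and SLC16A10, a carrier of aromatic amino acids, rose 2.61-fold (log2 change 1.39 ± 0.19, adjusted p = 3.12e-06). SLC25A25, a mitochondrial carrier of ATP-Mg and phosphate, rose 2.32-fold (log2 change 1.22 ± 0.17, adjusted p = 3.11e-06). None of these 3 carriers showed overlap between the groups.

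The called fibre type genes moved in opposite directions, but the libraries of the groups overlapped. At the median slow fibre gene the DLDPL libraries stood -0.11 to 1.38 from the L mean and the L libraries -1.40 to 0.89. For fast fibre genes these ranges were -0.57 to 0.018 and -0.77 to 0.30. L replicate 2 was the lowest library in both. Of 8 tested genes of slow fibres 4 rose and 0 fell, with a median log2 change of 0.52, and of 13 tested genes of fast fibres 0 rose and 5 fell, with a median of -0.34. ANKRD2, a stretch-responsive ankyrin protein of slow fibres, measured 47.2, 113 and 191 CPM in DLDPL and 7.897, 17.8 and 51.3 CPM in L (log2 change 2.37 ± 0.37, adjusted p = 2.19e-05). CSRP3, the muscle LIM protein of the Z-disc, measured 101, 361 and 590.1 CPM against 28.3, 62.3 and 192 CPM (log2 change 1.97 ± 0.36, adjusted p = 0.000189). In both genes the highest L library reached into the DLDPL range. MYH7B, a slow-type myosin heavy chain, rose 2.24-fold (log2 change 1.16 ± 0.26, adjusted p = 0.00163), and ACTN2, the alpha-actinin present in all fibre types, rose 1.53-fold (log2 change 0.61 ± 0.15, adjusted p = 0.0032). Myosin heavy chain genes are close copies, so reads may be split between them and their values are uncertain.

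On the fast side, ATP2A1, the calcium pump of fast fibres, measured 5884, 7279.6 and 9698 CPM in DLDPL and 7194, 11951 and 15332 CPM in L (log2 change -0.65 ± 0.14, adjusted p = 0.00122). MYLK2, the skeletal muscle myosin light chain kinase, fell 2.06-fold (log2 change -1.04 ± 0.23, adjusted p = 0.00136), MYBPC2, the fast myosin-binding protein C, fell 1.49-fold (log2 change -0.57 ± 0.13, adjusted p = 0.00143), and SIX4, a homeobox factor of fast fibres, fell 1.698-fold (log2 change -0.76 ± 0.14, adjusted p = 0.000234). PVALB, the calcium buffer of fast fibres, varied widely and was not called (log2 change -0.62 ± 0.50, adjusted p = 0.395). The groups overlapped for all of these genes. Among the 5 called fast fibre genes, ATP2A1, MYBPC2 and ENO3 also belong to the skeletal muscle markers, whose summed level was lowest in L replicate 2.

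Among genes of calcium handling and excitation more fell than rose. In that list 3 of the 24 tested members rose (12.5%) and 7 fell (29.2%), with a median log2 change of -0.16. The falls numbered 4 without DLDPL replicate 28. Over all tested genes the shares were 11.6% higher and 10.3% lower. The largest change in the list was upward, at log2 change 3.27. HRC, a calcium-binding protein of the sarcoplasmic reticulum, measured 127, 217 and 269.8 CPM in DLDPL and 307, 364 and 449 CPM in L (log2 change -0.76 ± 0.13, adjusted p = 5.23e-05), with no overlap. CACNG1, a subunit of the voltage-gated calcium channel of the T-tubule, fell 1.49-fold (log2 change -0.58 ± 0.17, adjusted p = 0.0108). Of sarcomere and Z-disc genes 7 of the 26 tested members rose and 2 fell, with a median log2 change of 0.11, or 5 fell without L replicate 2. KY, a Z-disc-associated protein whose loss causes kyphoscoliosis in mice, fell 2.903-fold (26.5, 42.5 and 77.7 CPM against 13.98, 122 and 334 CPM, log2 change -1.54 ± 0.38, adjusted p = 0.00373).

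Myostatin was lower in DLDPL, while other regulators of muscle growth went both ways. Among myogenic regulators and growth genes 3 of the 28 tested members rose (10.7%) and 5 fell (17.9%), with a median log2 change of -0.17. Over all tested genes the shares were 11.6% higher and 10.3% lower. MSTN, myostatin, measured 8.24, 14.7 and 39.6 CPM in DLDPL and 28.98, 39.7 and 46.1 CPM in L (log2 change -1.24 ± 0.30, adjusted p = 0.00275). In 7 of the 8 DLDPL libraries the level lay below that of every L library, at up to 15.8 CPM, and replicate 20 lay among the L values. HDAC4, a deacetylase that links nerve activity to muscle genes, fell 1.86-fold (log2 change -0.89 ± 0.19, adjusted p = 0.00112), and HDAC5, its relative, rose 1.45-fold with no overlap (log2 change 0.53 ± 0.13, adjusted p = 0.00255).

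MYF6, a myogenic transcription factor of mature fibres, rose 1.802-fold (log2 change 0.85 ± 0.22, adjusted p = 0.00497), while MYOD1 (log2 change -0.26 ± 0.28, adjusted p = 0.539) and MYF5 (log2 change -0.37 ± 0.38, adjusted p = 0.517), the factors that commit cells to the muscle lineage, were not called. IGFBP5, which binds insulin-like growth factors, was not called (log2 change -0.61 ± 0.27, adjusted p = 0.106), but was without DLDPL replicate 28 (log2 change -0.99, adjusted p = 0.00278). MAMSTR, a coactivator of MEF2 factors, measured 11.1, 12.9 and 23.5 CPM against 32.9, 45.98 and 48.3 CPM (log2 change -1.49 ± 0.16, adjusted p = 5.9e-08), with every DLDPL library below every L library. CDH15, the M-cadherin of satellite cells, fell 1.75-fold with no overlap (log2 change -0.81 ± 0.17, adjusted p = 0.0007).

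Among genes of immature or regenerating fibres, the calls of MYH3 and TNNT2 depended on L replicate 2. MYH3, embryonic myosin heavy chain, measured 2.81, 5.46 and 14.5 CPM in DLDPL and 3.48, 9.06 and 226 CPM in L (log2 change -2.67 ± 0.67, adjusted p = 0.00412), and TNNT2, the troponin T of developing and cardiac muscle, measured 0.6397, 1.31 and 2.18 CPM and 0.776, 1.97 and 49.7 CPM (log2 change -2.54 ± 0.61, adjusted p = 0.00304). Both maxima were those of L replicate 2. Without it neither was called (MYH3 log2 change -1.45, adjusted p = 0.0548, and TNNT2 log2 change -0.49, adjusted p = 0.278), limma on log2(RPKM + 1) called neither with all libraries (adjusted p = 0.138 and 0.194), and DESeq2 did not call TNNT2 (adjusted p = 0.373). In the list 1 of the 10 tested members rose and 3 fell, with a median log2 change of -0.71. Without L replicate 2 there was 1 fall, and without L replicate 10 there were 2 rises. For 1 member every DLDPL library lay above every L library, and for 1 other every L library lay above. The largest upward change was 1.25. Among cell cycle genes 1 of the 14 tested members rose and 3 fell, with a median log2 change of -0.63, and the falls numbered 1 without L replicates 7 or 9 or DLDPL replicates 18, 28 or 32. AURKB, a mitotic kinase, fell 2.47-fold (log2 change -1.31 ± 0.33, adjusted p = 0.00446). GADD45B, a stress-induced regulator counted in this list, rose 4.43-fold (log2 change 2.15 ± 0.32, adjusted p = 9.73e-06).

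A minority of fat synthesis genes rose in DLDPL, and the size of the changes in SCD and FASN was set by a few libraries. SCD, the desaturase that makes monounsaturated fatty acids, measured 8.78, 24.8 and 448 CPM in DLDPL and 2.52, 4.44 and 15.8 CPM in L (log2 change 3.52 ± 0.69, adjusted p = 0.000376). The maximum was that of DLDPL replicate 29, the next value being 37.9 CPM, and without it the change was smaller and still called (log2 change 1.76, adjusted p = 0.00607). FASN, fatty acid synthase, measured 6.99, 11.99 and 199 CPM against 3.600, 6.92 and 21.01 CPM (log2 change 2.28 ± 0.56, adjusted p = 0.00325) and behaved likewise (log2 change 1.21, adjusted p = 0.0467 without replicate 29). Limma on log2(RPKM + 1) did not call it (log2 change 1.08, adjusted p = 0.101).

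Of the lipogenesis and sterol list 5 of the 22 tested members rose and 1 fell, with a median log2 change of 0.20, the fall being lost without L replicates 1, 5 or 8 or DLDPL replicates 6, 20, 25, 27 or 29. ACSL1, which activates long-chain fatty acids, rose 1.495-fold (log2 change 0.58 ± 0.16, adjusted p = 0.00686). Among adipogenic regulators 3 of the 14 tested members rose and 2 fell, with a median log2 change of -0.079, or 1 fell without L replicates 1, 2, 4, 8, 9 or 10 or DLDPL replicates 6, 18, 25, 27, 28 or 32. PPARG, the central transcription factor of fat cells, measured 3.47, 4.81 and 20.6 CPM in DLDPL and 1.01, 2.53 and 5.83 CPM in L (log2 change 1.32 ± 0.34, adjusted p = 0.00506), highest in DLDPL replicate 27, and stayed called at a smaller size without it (log2 change 0.86, adjusted p = 0.0357).

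Markers of fat cells themselves did not give a stable call. Of the 17 listed, 9 had a symbol in the files and 8 were tested, of which 1 rose and 1 fell. The rising count was 0 without L replicate 8 or DLDPL replicates 27 or 29 and 3 without L replicate 2, and the fall was lost without L replicates 4, 5, 7, 8, 9 or 10 or DLDPL replicates 18, 25, 27, 29 or 32. CIDEC, a lipid droplet protein of fat cells, rose (log2 change 1.58 ± 0.52, adjusted p = 0.0259), but not without DLDPL replicate 27 (log2 change 1.28, adjusted p = 0.0779) or replicate 29 (log2 change 1.22, adjusted p = 0.0873), nor without L replicate 8, nor in limma (adjusted p = 0.053). PLIN1, the perilipin of fat cells, was not called (log2 change 1.37 ± 0.62, adjusted p = 0.112), but was without L replicate 2 (log2 change 2.07, adjusted p = 0.016). Summed over the 8 tested markers, the level was 774 to 1005 CPM in DLDPL and 836 to 1101 CPM in L. That sum did not follow PLIN1, because DLDPL replicate 27 had the lowest DLDPL sum and the highest PLIN1, at 43.6 CPM. L replicate 8 had the highest L sum, 1101 CPM, with PLIN1 at 1.86 CPM. PLIN1 and CIDEC made up only a small part of the sum, so it is no measure of fat cell content. PLIN1 reached 43.1 CPM in DLDPL replicate 29, 3.19 to 15.1 CPM in the remaining DLDPL libraries and 0.163 to 23.1 CPM in L. Replicates 27 and 29 were also the highest DLDPL libraries for CIDEC, FASN and PPARG. No listed marker found in the files was at 0 reads in all 16 libraries. The part of fat cell content in the values of SCD, FASN and PPARG was not tested. Of lipolysis and lipid droplet genes 1 of the 9 tested members rose and 0 fell, with a median log2 change of 0.002. The rises numbered 2 without DLDPL replicates 28 or 29 and 3 without L replicate 2, and 1 member fell without DLDPL replicate 25. ABHD5, the coactivator of the lipase ATGL, rose 1.55-fold with no overlap (log2 change 0.63 ± 0.15, adjusted p = 0.00199).

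Leukocyte markers separated mainly L replicate 2. Of 10 tested macrophage markers 0 passed the test in either direction, and without L replicate 2 there were 3 rises. CD14 was among them, a receptor for bacterial lipopolysaccharide (log2 change 0.49 ± 0.31, adjusted p = 0.267 with all libraries, and log2 change 1.02, adjusted p = 0.00329 without that one). Summed macrophage markers measured 37.8 to 79.6 CPM in DLDPL and 22.5 to 183 CPM in L. Of the lymphocyte markers, 9 of 18 were tested, and 0 rose and 4 fell, or 2 without L replicate 2. CD8A, of cytotoxic T cells, measured 0.173, 0.395 and 0.868 CPM against 0.852, 1.31 and 4.400 CPM (log2 change -1.79 ± 0.45, adjusted p = 0.00373) and stayed called (log2 change -1.38, adjusted p = 0.018). Their summed levels were 6.48 to 12.8 CPM and 7.63 to 52.6 CPM, so these are sparse signals in both groups. Antigen presentation genes gave 3 falls of 7 tested, with 0 without L replicate 2 and 1 without L replicate 10 or DLDPL replicates 18, 27, 28 or 32.

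Interferon-stimulated genes set 1 library apart. In that list 1 of the 23 tested members rose and 1 fell, with a median log2 change of 0.15, and without DLDPL replicate 32 there were 0 rises and 5 falls. The single fall was lost without L replicates 1, 5, 9 or 10 or DLDPL replicates 6, 18, 20, 25 or 28. Replicate 32 stood 1.97 above the L mean at the median member, while the other 7 DLDPL libraries stood between -0.82 and -0.37. IFIT2, an interferon-induced RNA-binding protein, was called higher (log2 change 1.06 ± 0.32, adjusted p = 0.0164), but not without replicate 32 (log2 change 0.55, adjusted p = 0.126) nor in limma (adjusted p = 0.101). IRF9, which carries the interferon signal to the genes, was not called (log2 change -0.56 ± 0.23, adjusted p = 0.0764) and fell without that library (log2 change -0.78, adjusted p = 0.00955) or in a fit of the 16 libraries alone (adjusted p = 0.0423).

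Of 9 tested smooth muscle and pericyte markers 3 rose and 1 fell, with a median log2 change of 0.25, and the fall was lost without L replicate 9 or DLDPL replicates 28 or 32. TAGLN, an actin-binding protein of smooth muscle, measured 30.7, 64.7 and 81.4 CPM in DLDPL and 17.6, 28.4 and 45.1 CPM in L (log2 change 1.05 ± 0.19, adjusted p = 0.000166), and ACTA2, smooth muscle actin, rose 1.74-fold (log2 change 0.80 ± 0.22, adjusted p = 0.00769). The summed markers ranged over 4139 to 7399 CPM in DLDPL and 4177 to 6208 CPM in L. They include DES, desmin, which is also among the skeletal muscle markers and was not called. The sum is therefore not that of smooth muscle and pericytes alone, and TAGLN makes up only a small part of it. Endothelial markers gave 0 rises and 1 fall of 9 tested. That fall, of the VEGF receptor KDR (log2 change -0.54 ± 0.18, adjusted p = 0.0264), was lost without L replicates 5, 9 or 10 or DLDPL replicates 20 or 28 and in limma (adjusted p = 0.0509). Of 14 blood markers 3 were tested and 1 rose, the globin gene HBM, at 0.139, 0.448 and 3.42 CPM against 0, 0.1204 and 0.489 CPM (log2 change 2.48 ± 0.63, adjusted p = 0.00446, or 1.81 without DLDPL replicate 25). Globin genes are close copies and their counts are uncertain. Of nerve and Schwann cell markers 0 of 3 tested passed.

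**Figure D4:**
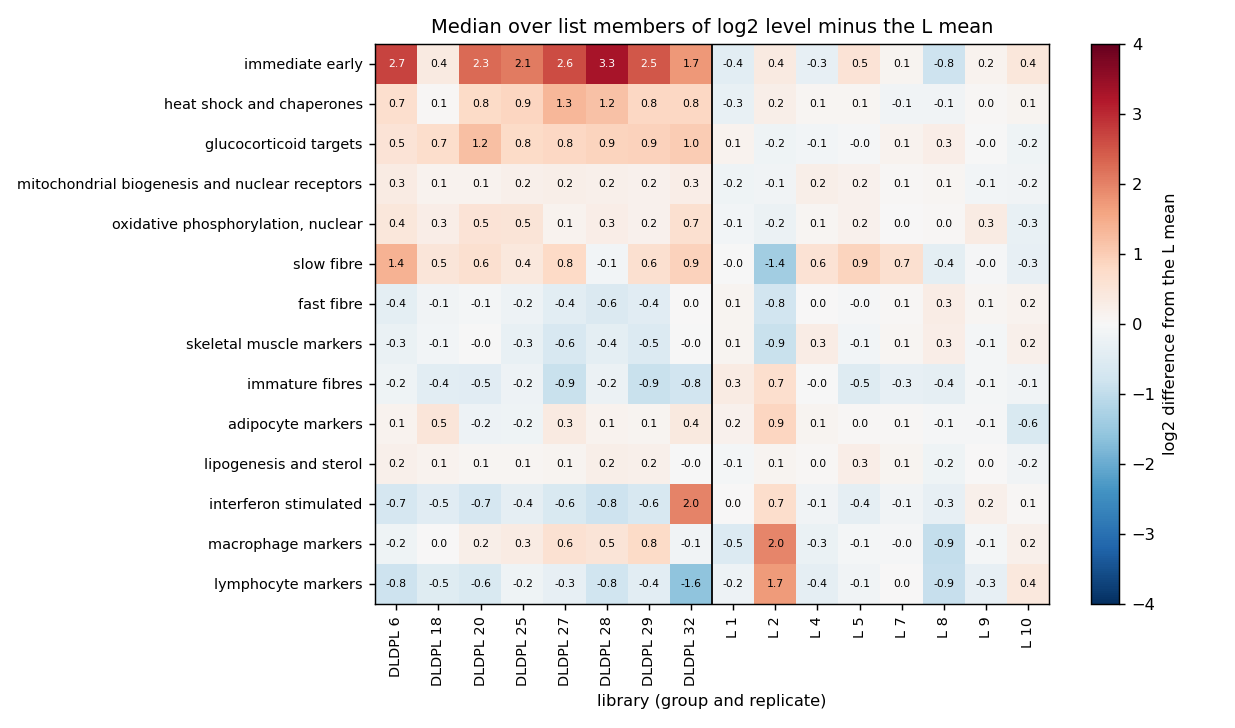
Median log2 difference from the L mean over the tested members of 14 gene lists (rows) in each of the 16 libraries (columns, DLDPL left, L right), with red for higher and blue for lower. DLDPL replicate 18 is paler than its group in the immediate early and heat shock rows, replicate 32 stands out in the interferon row at 1.97, and L replicate 2 in the macrophage row at 1.95.

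Among the largest falls, PARM1, a mucin-like membrane protein, measured 0.561, 2.23 and 3.75 CPM in DLDPL and 3.72, 8.07 and 18.2 CPM in L (log2 change -1.93 ± 0.38, adjusted p = 0.000424). PIK3IP1, an inhibitor of PI3 kinase, measured 3.58, 5.21 and 11.2 CPM against 10.3, 20.6 and 32.02 CPM (log2 change -1.87 ± 0.25, adjusted p = 3e-06). The highest DLDPL library of each lay just above the lowest L library. NFE2L3, a transcription factor related to NRF2, measured 2.81, 5.200 and 7.08 CPM against 9.53, 18.8 and 26.8 CPM (log2 change -1.87 ± 0.27, adjusted p = 7.83e-06), and KLHL33, a kelch-family protein, 4.94, 17.8 and 28.01 CPM against 32.1, 53.02 and 73.1 CPM (log2 change -1.76 ± 0.30, adjusted p = 6.05e-05). Neither overlapped.

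ATP1B4, a member of the Na,K-ATPase beta subunit family that sits in the inner nuclear membrane of muscle, was the most abundant of the large falls, at 97.3, 126 and 173 CPM in DLDPL and 274, 370.1 and 598 CPM in L (log2 change -1.57 ± 0.18, adjusted p = 1.05e-07). The groups did not overlap. MAP2K6, a kinase that activates p38, fell 3.07-fold (log2 change -1.62 ± 0.30, adjusted p = 0.000188), and ENHO, which encodes the peptide adropin, fell 2.51-fold with no overlap (log2 change -1.33 ± 0.24, adjusted p = 0.000131). CITED2, a cofactor of CBP and p300 (log2 change -1.44 ± 0.30, adjusted p = 0.000628), POLH, a DNA polymerase that copies past damage (log2 change -1.42 ± 0.25, adjusted p = 9.96e-05), and ERBB2, a receptor tyrosine kinase (log2 change -1.30 ± 0.23, adjusted p = 9.93e-05), fell with overlapping groups. KIT, the receptor of stem cell factor, whose alleles set white coat colour in breeds such as Landrace, measured 0.604, 2.25 and 3.19 CPM against 5.03, 6.64 and 12.5 CPM (log2 change -1.79 ± 0.30, adjusted p = 5.42e-05). All 8 DLDPL libraries lay below all 8 L libraries for KIT.

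The differences from Landrace were set beside those from the 2 other groups, fitted in the same model. These comparisons share the DLDPL libraries, so they are given side by side only. Against LDPL, the cross without Duroc, edgeR called 0 of 12821 genes, with 969 (7.56%) at an unadjusted p under 0.05 and a smallest adjusted p of 0.0927, DESeq2 called 33 and limma on log2(RPKM + 1) called 0. Against DPL, edgeR called 526 (4.1%), of which 254 were higher in DLDPL (1.98%) and 272 lower (2.12%), DESeq2 called 802 and limma 439, and edgeR called 312 without DLDPL replicate 6, 345 without DLDPL replicate 29 and 347 without DPL replicate 11. The immediate early list had median log2 changes of 2.44 against L, -0.22 against LDPL and -0.56 against DPL, with 0 members called in the comparisons with LDPL and DPL. NR4A3 averaged 206 ± 127 CPM in DLDPL, 0.965 ± 0.417 CPM in L, 129 ± 80.98 CPM in LDPL and 156 ± 109 CPM in DPL (SD, n = 8 each). Only L was low for this gene.

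Some genes that differed from L also differed from DPL, in the same or in the opposite direction. SCD was called higher than in DPL as well (log2 change 2.77 ± 0.67, adjusted p = 0.0145), but not without DLDPL replicate 29 (log2 change 1.02, adjusted p = 0.213), and against LDPL it was not called (log2 change 2.06 ± 0.65, adjusted p = 0.326). The call of FASN against DPL (log2 change 2.13 ± 0.55, adjusted p = 0.0232) was also lost without that library (log2 change 1.08, adjusted p = 0.174). HSPB8 and COX5B were higher than in L but lower than in DPL (HSPB8 log2 change -0.62 ± 0.18, adjusted p = 0.0397, and COX5B log2 change -0.51 ± 0.13, adjusted p = 0.0229). DLDPL thus lay between L and DPL for both of these genes, as it did for ANKRD2 (log2 change -1.38 ± 0.36, adjusted p = 0.0225) and CSRP3 (log2 change -1.39 ± 0.36, adjusted p = 0.0217). These calls against DPL were lost when single libraries were left out. HSPB8 lost its call without DLDPL replicates 6, 18, 20, 25 or 27 or DPL replicates 11, 21 or 23, COX5B without DLDPL replicate 29 or DPL replicate 23, ANKRD2 without DLDPL replicate 18 or DPL replicate 11, and CSRP3 without DPL replicate 23.

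KIT was lower in DLDPL than in L and higher than in DPL (log2 change 1.70 ± 0.33, adjusted p = 0.00277). COL15A1, which was lower than in L, was higher than in DPL (log2 change 1.17 ± 0.18, adjusted p = 0.000304), and COL3A1, not called against L, was also higher than in DPL (log2 change 1.62 ± 0.29, adjusted p = 0.00153). Of the 34 matrix and fibroblast genes, 8 were called higher than in DPL and 2 higher than in L. LDHA (log2 change 0.77 ± 0.17, adjusted p = 0.00731), PVALB (log2 change 2.10 ± 0.52, adjusted p = 0.0194) and IGFBP5 (log2 change 1.16 ± 0.28, adjusted p = 0.0141) were called against DPL and not against L. Whether the changes against L and against DPL differ from each other was not tested.

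**Figure D5:**
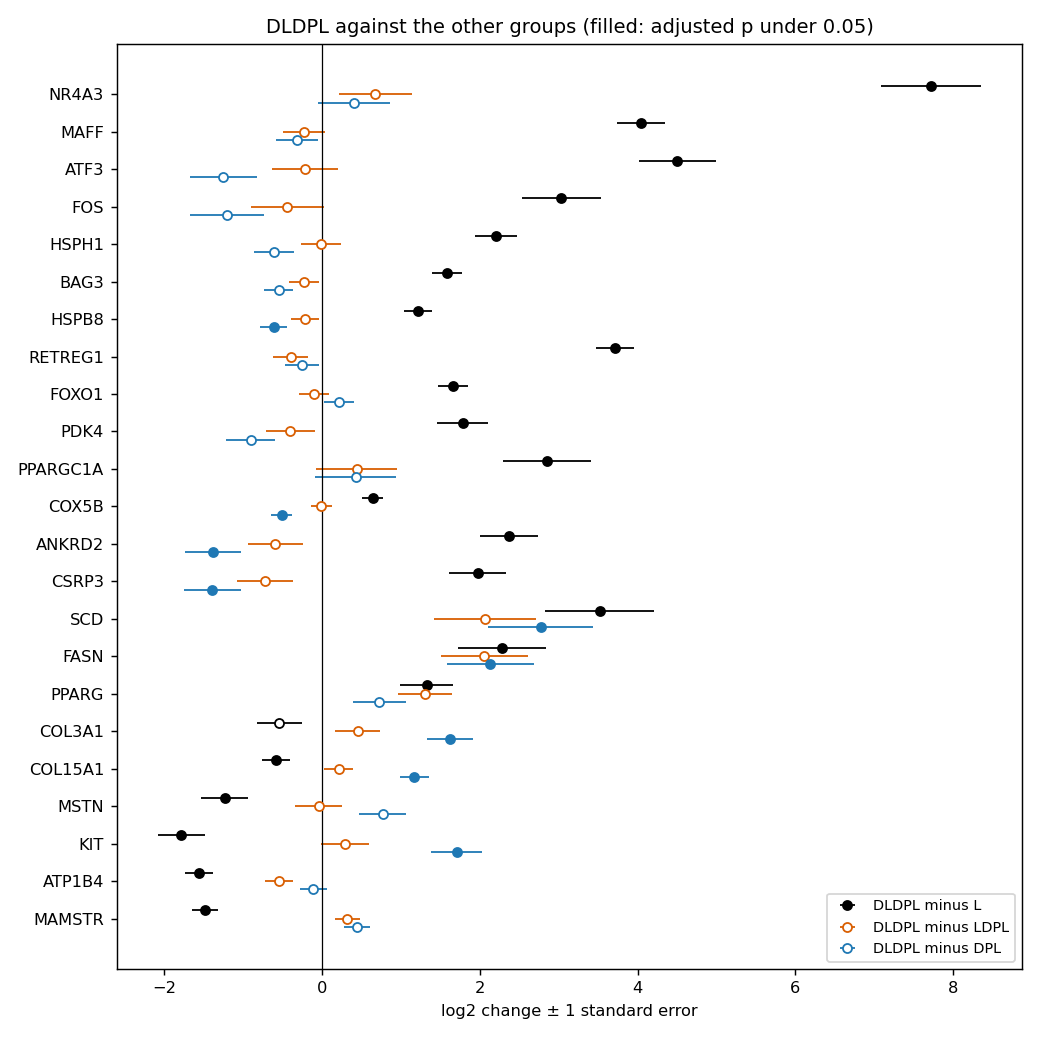
Log2 change of DLDPL minus L (black), minus LDPL (orange) and minus DPL (blue) for 23 genes named in the text, with bars of 1 standard error on each side; filled points were called at an adjusted p under 0.05. The black points of the immediate early and heat shock genes lie far right of 0, while none of the orange points is filled.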

How the data were processed

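Per the labels, RNA from frozen muscle was made into libraries with a kit that does not mark strand, 1 library per pig. The authors deposited, per library, raw counts per gene of reads mapped at 1 place, RPKM, a coverage score and the gene length. Bowtie 0.12.2 and Cufflinks, with the mouse build mm8, are what the submitters' processing notes list. No source used here gives the pig build or annotation, and no coordinates are printed. A gene not listed in a library was given a count of 0. Symbols were matched for 10836 of 17930 identifiers (60.4%). The remainder held 14.5% of the reads.

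Counts were filtered in edgeR 4.0.16 (filterByExpr with a minimum count of 10 and a minimum total of 15), scaled by TMM and fitted by the quasi-likelihood model over all 32 libraries with the 4 groups. Benjamini-Hochberg adjustment ran over all 12821 tested genes, and calls were made under 0.05. The standard error is the size of the log2 change over the square root of its F statistic. Every adjusted p without another tool's name is from this test. DESeq2 1.42.0, limma 3.58.1 on log2(RPKM + 1) with R 4.3.3, other scalings and filters, and leaving out each library were alternatives. Leaving out libraries other than L replicate 2 was added after seeing the data. The fit was tested on simulated data. No source beyond the labels says that the libraries are separate animals. If they are not, p-values measure only how these samples vary, perhaps technically. Within each group all pairs of libraries differed by more than sampling noise.

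Named genes are the 15 largest rises and 15 largest falls of called, symbol-bearing genes that reach a mean RPKM of 5 in 1 of the 2 groups, up to 4 members of smallest adjusted p per gene list, and a panel. The rule names 180 genes, of which 132 are given, and 24 further list members were named after their values were seen. Some genes the rule names are not reported here. Groups compared, gene lists and rule were chosen with earlier results of these data known. Some genes belong to several lists, so the counts of different lists are not independent.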

Additional observations from a re-analysis of the deposited data

Results flagged for a closer look

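Within each group of 8, the highest or lowest log2 CPM of a named gene was compared with its nearest neighbour by Dixon's criterion at the 95% level. Of 312 groups of values, 46 held such a value. Chance gives about 1 in 20 for independent, normally distributed groups. Many of these genes were picked by their values and move together in the same libraries, so no excess over chance can be read from the count. DLDPL replicate 18 held 16 and L replicate 2 held 15 of them.

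DLDPL replicate 18 was far below its group, on the log2 scale, for the immediate early and stress genes KLF4 (3.49), DUSP1 (5.69), EGR1 (3.09), EGR2 (-0.68), EGR3 (-1.94), IER2 (0.053) and GADD45B (2.79). The heat shock genes HSPH1 (5.08), HSPB8 (9.45) and DNAJA1 (5.35) and the genes ADAMTS4 (-2.22), CXCL8 (-3.68) and CXCL2 (0.12) were low there too. It was far above its group for HDAC5 (6.19), HNRNPK (7.96) and RBM3 (6.59). L replicate 2 was far above the other L libraries for THBS1 (5.33), TNNT2 (5.64), CD14 (3.66), CD8A (2.16) and HSP90AB1 (9.85). It was far below them for NFE2L3 (3.26), MAP2K6 (2.36), MYBPC2 (12.06), TRIM63 (6.23), CACNG1 (7.02), SPOCK2 (1.25), CRY2 (3.75), ENO3 (12.60), LDHA (11.67) and DNAJB5 (5.36).

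Among the other DLDPL libraries, replicate 29 was high for SCD (8.81) and low for HRC (6.99), and replicate 28 was high for NFIL3 (6.49) and ZFAND2A (6.63). Replicate 32 was high for IFIT2 (5.01) and IRF9 (4.35) and low for TAGLN (4.94), and replicate 20 was high for MSTN (5.31). In L, replicate 7 was low for ZFAND2A (1.02), BAG3 (6.98) and ABHD5 (3.45), and replicate 8 for ACTA2 (4.22) and SLC38A2 (2.34). L replicate 10 was high for RETREG1 (5.77) and L replicate 9 for SLC19A2 (3.79). What these libraries share beyond these values was not tested.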

How the results depend on the processing

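No paired analysis was possible because the DLDPL and L libraries share no replicate number. The count of called genes (2805) ranged from 2391 to 2802 when each of the 16 libraries was left out in turn. It was 2814 with RLE factors, 2816 without mitochondrially encoded genes, 2675 with no filter, 3101 with only the 16 libraries, 3091 with DESeq2 and 2215 with limma on log2(RPKM + 1). Limma called 992 genes higher and 1223 lower, so that 44.8% of its calls were higher, against 53.1% in edgeR. Without L replicate 2, 2483 of the 2802 called genes were also called with all libraries. The mitochondrial share differed by 1.38 points without L replicate 2 (exact permutation p = 0.506) against 1.89 with it. Of 141 called genes named in the text, 128 kept the call in every alternative that gave them a value (21 or 22 each), 13 lost it in at least 1, and 0 changed direction. Limma called fewer rising members than edgeR in the lists of splicing (5 against 9), antioxidant (4 against 7), carrier (3 against 6), lipogenesis and sterol (3 against 5), unfolded protein (3 against 5) and hypoxia genes (1 against 3). It called fewer falling members among antigen presentation (0 against 3), autophagy (1 against 3) and unfolded protein genes (0 against 2), and more among cell cycle genes (5 against 3). The 4 falls among glycolysis and glycogen genes were 2 with RLE factors and 1 with no filter or with the 16 libraries alone. With no filter there was 1 fall each among fatty acid oxidation, cell cycle and antigen presentation genes, against 3 in each with the filter. Against DPL, the count of called genes (526) ranged from 312 to 692 when each library was left out. Genes with few reads, such as CXCL8, ADAMTS4 and HBM, have sizes that depend on single libraries.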

Other observations

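Some genes of inflammation, redox control and RNA processing also differed between DLDPL and L. Of the cytokine and acute inflammation list 9 of the 25 tested members rose and 2 fell, with a median log2 change of 0.42. TNFRSF12A, the receptor of the cytokine TWEAK, measured 19.96, 26.2 and 56.1 CPM in DLDPL and 5.22, 9.85 and 14.1 CPM in L (log2 change 1.76 ± 0.25, adjusted p = 4.12e-06), and NFKBIZ, a nuclear cofactor of NF-kappaB, rose 3.800-fold (log2 change 1.93 ± 0.28, adjusted p = 9.73e-06). Only TNFRSF12A of this pair had no overlap between the groups. CXCL8, a neutrophil chemokine, was called on very few reads, at 0, 0.813 and 1.25 CPM against 0, 0 and 0.07202 CPM, with 0 reads in 6 L libraries and in 1 DLDPL library (log2 change 5.09 ± 0.76, adjusted p = 1.02e-05, or 5.69 without L replicate 7), so its size is uncertain. CXCL2, a related chemokine, rose 3.93-fold (log2 change 1.97 ± 0.42, adjusted p = 0.000826).

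In the antioxidant list 7 of the 19 tested members rose and 3 fell, with a median log2 change of 0.19. SRXN1, which restores oxidised peroxiredoxins, measured 4.798, 8.02 and 39.5 CPM in DLDPL and 0.542, 1.498 and 5.38 CPM in L (log2 change 2.79 ± 0.50, adjusted p = 0.000124). CAT, the catalase that breaks down hydrogen peroxide, went the other way at 196, 222 and 267 CPM against 330.4, 369 and 453 CPM (log2 change -0.72 ± 0.12, adjusted p = 6.63e-05). No DLDPL library reached the L range for CAT, whereas the ranges met for SRXN1. NFE2L1, a transcription factor of proteasome genes, rose 1.65-fold with no overlap (log2 change 0.72 ± 0.13, adjusted p = 0.000157).

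Of splicing and RNA-binding genes 9 of the 28 tested members rose and 2 fell, with a median log2 change of 0.12, or 1 fell without L replicate 7 or DLDPL replicate 28. TRA2B (log2 change 0.97 ± 0.13, adjusted p = 2.3e-06), SRSF3 (log2 change 0.82 ± 0.13, adjusted p = 1.73e-05) and HNRNPK (log2 change 0.53 ± 0.082, adjusted p = 2.19e-05), all splicing regulators, rose with every DLDPL library above every L library. RBM3, an RNA-binding protein induced by cold, measured 11.3, 24.9 and 96.4 CPM against 8.58, 10.4 and 16.2 CPM (log2 change 1.46 ± 0.36, adjusted p = 0.00317). Its highest value was that of DLDPL replicate 18, the DLDPL library in which the median heat shock gene was lowest. Of 20 tested ribosomal protein genes 0 rose and 0 fell in edgeR, with a median log2 change of 0.053. There was 1 rise without L replicate 2 or DLDPL replicate 28, and 1 fall without DLDPL replicate 18. Ribosomal protein genes have many near-identical copies, so their counts are uncertain.

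Of hypoxia and angiogenesis genes 3 of the 19 tested members rose and 3 fell, with a median log2 change of 0.043, or 1 rose without L replicates 1 or 8 or DLDPL replicates 25, 28 or 29. HIF1A, the oxygen-regulated transcription factor, rose 1.72-fold (log2 change 0.79 ± 0.12, adjusted p = 2.37e-05), and ANGPT2, an angiopoietin that loosens vessels, fell 2.798-fold with no overlap (log2 change -1.48 ± 0.28, adjusted p = 0.00021). Of BMP, TGF-beta and Wnt genes 2 of the 30 tested members rose and 2 fell, with a median log2 change of -0.052, or 1 rose without L replicates 1, 8 or 9 or DLDPL replicates 6 or 27. SMAD3, which carries the TGF-beta signal, rose 1.68-fold (log2 change 0.75 ± 0.13, adjusted p = 9.82e-05), and BMP4, a ligand of the BMP branch, fell 1.67-fold (log2 change -0.74 ± 0.17, adjusted p = 0.00237). Of 16 tested candidate genes for carcass and meat quality 2 rose and 5 fell, or 3 fell without L replicates 1 or 4.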
